A study of Mus musculus with 8 samples.

Results

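The transcripts of the mitochondrial genome were taken as every row on chromosome M whose gene symbol starts with mt-, which gave 37 of the 55421 rows of the tables: 13 messenger RNAs, 2 ribosomal RNAs and 22 transfer RNAs. They were measured in liver by bulk RNA sequencing of poly(A)-enriched, non-stranded libraries. The mice were C57BL/6J males, bought at 4 weeks of age, given 4 weeks to acclimatise and then kept on a diet with 45% of its calories as fat, which all groups shared. By gavage every other day between zeitgeber times (ZT, hours after lights on) 8 and 10 they received the vehicle, PBS (control, a cohort of 11), or the polymethoxyflavone sudachitin at 100 mg per kg (a cohort of 12). The animals were 30 weeks old when livers were collected, either in the light phase (ZT6) or in the dark phase (ZT18), and 2 mice of each treatment and time were sequenced, 8 libraries in all. Libraries held 13914116 to 17759630.5 counts in exons. All 6 hepatocyte markers were present, with a summed level of 81285 to 101528 CPM (counts scaled to the size of the library).

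Mammalian mitochondrial DNA is a small circle whose heavy and light strands are each copied into long transcripts that span many genes. The tRNAs that punctuate these precursors are cut out by RNase P (Trmt10c, Hsd17b10 and Prorp) and Elac2, which releases the mRNAs and rRNAs between them. The mRNAs encode membrane subunits of respiratory complexes I, III and IV and of the ATP synthase, and the rRNAs and tRNAs serve their translation inside the organelle. All other subunits of these complexes, and every factor that copies, processes or translates mitochondrial RNA, come from nuclear genes. Liver cells are rich in mitochondria, which oxidise fatty acids there.

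For 13 of the 37 genes the counts are treated as uncertain, because they lie wholly or partly in a stretch of the mitochondrial genome that near-identical nuclear pseudogenes cover for the most part. Of these, 7 mRNA genes were compared with their own pseudogene. The other 6 (mt-Atp8 and 5 tRNA genes) are included by position only, since the nuclear sequence at these genes was not compared. In the GRCm38 annotation (GENCODE release M21), 7 unprocessed pseudogenes on the minus strand of chromosome 1, within chr1:24611535-24616197, follow one another in the order of the mitochondrial genes and match chrM:6381-11042, a stretch of 4662 bases. Over 4149 aligned bases they differ from the mitochondrial genes at 7. The pseudogenes of mt-Co2 (Gm28661, 681 bases), mt-Atp6 (Gm10925, 678), mt-Co3 (Gm28437, 783), mt-Nd4l (Gm10222, 294) and the first 876 bases of mt-Nd4 (Gm28439) matched with no difference. Gm28438 differs from mt-Nd3 by T3C, and Gm29216 differs from the end of mt-Co1 by T1056A, C1057T, A1059G, A1060G, C1062A and A1066T, with the mitochondrial base first and positions counted from the first base of the mitochondrial gene. The start of mt-Co2 and of its copy are shown because no base tells them apart, the start of mt-Nd3 because 1 base does, and mt-Co1 from base 1054 because the copied stretch begins there. Capitals mark the bases that differ.
mt-Co2 (chrM:7013-7072, plus strand): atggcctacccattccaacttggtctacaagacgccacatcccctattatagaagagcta
Gm28661 (chr1:24615506-24615565, minus strand): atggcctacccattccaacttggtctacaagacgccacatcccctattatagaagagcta
mt-Nd3 (chrM:9459-9518, plus strand): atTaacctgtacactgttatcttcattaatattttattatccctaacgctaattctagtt
Gm28438 (chr1:24613060-24613119, minus strand): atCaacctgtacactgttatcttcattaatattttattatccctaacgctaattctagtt
mt-Co1 (chrM:6381-6440, plus strand): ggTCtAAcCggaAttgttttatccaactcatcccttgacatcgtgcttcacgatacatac
Gm29216 (chr1:24616138-24616197, minus strand): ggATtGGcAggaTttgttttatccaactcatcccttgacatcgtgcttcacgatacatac

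The stretch from the first to the last matching base, called the copied stretch here although its gaps were not compared, held 11 genes whole (mt-Ts1, mt-Td, mt-Co2, mt-Tk, mt-Atp8, mt-Atp6, mt-Co3, mt-Tg, mt-Nd3, mt-Tr and mt-Nd4l) and parts of mt-Co1 (31.8% of the gene) and mt-Nd4 (63.6%), and the other 24 genes lie outside it. A read that falls wholly in an identical stretch has more than 1 position in the genome, and how the counting treated such reads is not given in the sources used here. Inside the stretch, the row of mt-Co2 held 39 to 79.5 counts per library and that of its identical copy Gm28661 held 45.5 to 84. The rows of mt-Atp6 (53 to 85) and Gm10925 (50.5 to 94.5), and of mt-Nd4l (14.5 to 37) and Gm10222 (16 to 35.5), were as close. Summed over the 8 libraries, mt-Co2 had 493 counts and its copy 547.5, mt-Atp6 528 and 553.5, and mt-Nd4l 195 and 193.5. By contrast mt-Co1, most of which lies outside the stretch, had 3098232 counts against 413.5 in Gm29216, and mt-Nd4 had 689161 against 426 in Gm28439. The counts of mt-Co3 (11817 in all, against 594 in Gm28437) and mt-Nd3 (7957 against 512.5 in Gm28438) lay between these extremes. Both genes and mt-Tg lie next to T3C, at chrM position 9461: mt-Nd3 contains it, mt-Tg ends 3 bases and mt-Co3 71 bases before it. The other 8 genes inside are 347 to 1373 bases from the nearest of the substitutions named above. Of these, mt-Ts1, at 477 bases, had 114 to 352 counts, and the other 7 had 0 to 85. These distances leave out differences in length. A chrM position and its chromosome 1 partner sum to 24622578 up to mt-Nd3 and to 24622577 from mt-Nd4l on. A length difference therefore lies between these genes, in or beside mt-Tr (1 to 8 counts) and near mt-Nd4l (14.5 to 37). The nuclear sequence between the pseudogenes, at mt-Atp8 and the 5 tRNA genes, was not analysed here, so that a copy of these 6 genes was not shown.

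**Figure D1:**
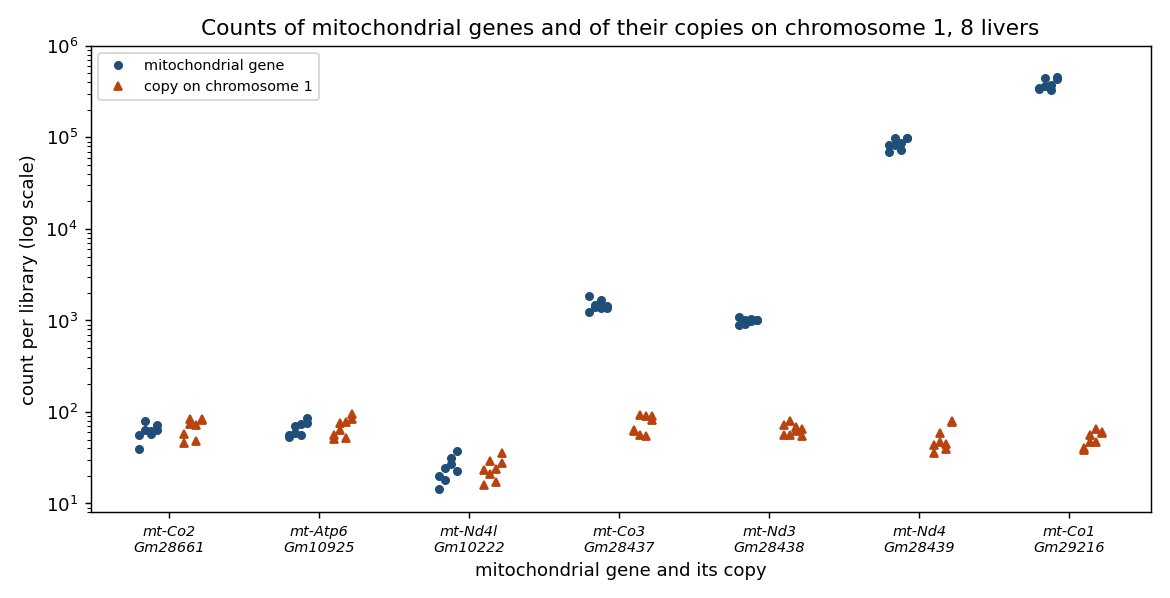
Counts per library (vertical axis, log scale) of 7 mitochondrial genes and of their annotated copies on chromosome 1, where each point is 1 of 8 livers. For mt-Co2, mt-Atp6 and mt-Nd4l the points of gene and copy overlap, whereas mt-Nd4 and mt-Co1, which lie partly outside the copied stretch, stand far above theirs.

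A second set of copies on chromosome 2 is less alike: Gm13340 matched the whole of mt-Co1 at 97.6% of its bases and Gm13339 the end of mt-Nd2 at 96.7%.

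Per length of gene, the 7 mRNAs with bases outside the copied stretch stood far above the other 6 mRNAs. Their level is given in FPKM (counts per kilobase of exon, scaled to the library total), as the mean and SD over the 8 livers. Highest was mt-Co1, the catalytic subunit of complex IV, at 7351 FPKM (SD 815, n = 8), followed by mt-Cytb, cytochrome b of complex III, at 4855 (SD 532, n = 8). The lowest liver for mt-Co1, at 6392, was above the highest for mt-Cytb, at 5955. Next came 5 subunits of complex I: mt-Nd1 at 3023 (SD 435), mt-Nd2 at 2947 (SD 341), mt-Nd6 at 2159 (SD 346), mt-Nd4 at 1831 (SD 182) and mt-Nd5 at 1727 FPKM (SD 262). mt-Nd1 and mt-Nd2 differed by less than the SD of either, as did mt-Nd4 and mt-Nd5. The gap between mt-Nd2 and mt-Nd6 was wider than both SDs, although the lowest liver for mt-Nd2 (2546) was below the highest for mt-Nd6 (2757). That between mt-Nd6 and mt-Nd4 was within the SD of mt-Nd6 and above that of mt-Nd4, and the livers of this pair overlapped. When the counts of mt-Co1 and mt-Nd4 were divided only by their bases outside the copied stretch (1053 and 502), a calculation chosen after seeing the data, mt-Co1 came to 10779 FPKM and mt-Nd4 to 5023 (SD 500, n = 8), which moved mt-Nd4 from the sixth to the second place. This gives all counts of the row to those bases and is therefore an upper value.

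The remaining 6 mRNAs all lie inside the copied stretch and had far lower values: 84.5 FPKM for mt-Nd3 (SD 9.31) and 55.6 for mt-Co3 (SD 9.03), then 5.92 for mt-Atp8 (SD 1.42), 2.84 for mt-Atp6 (SD 0.458), 2.64 for mt-Co2 (SD 0.498) and 2.41 for mt-Nd4l (SD 0.679). These genes encode a complex I subunit each (mt-Nd3, mt-Nd4l), the other mitochondrial subunits of complex IV (mt-Co2, mt-Co3) and both mitochondrial subunits of the ATP synthase (mt-Atp6, mt-Atp8). Their levels cannot be ranked against those of genes outside the stretch. mt-Atp8 and mt-Atp6 also share 43 bases, and mt-Nd4l and mt-Nd4 share 7.

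**Figure D2:**
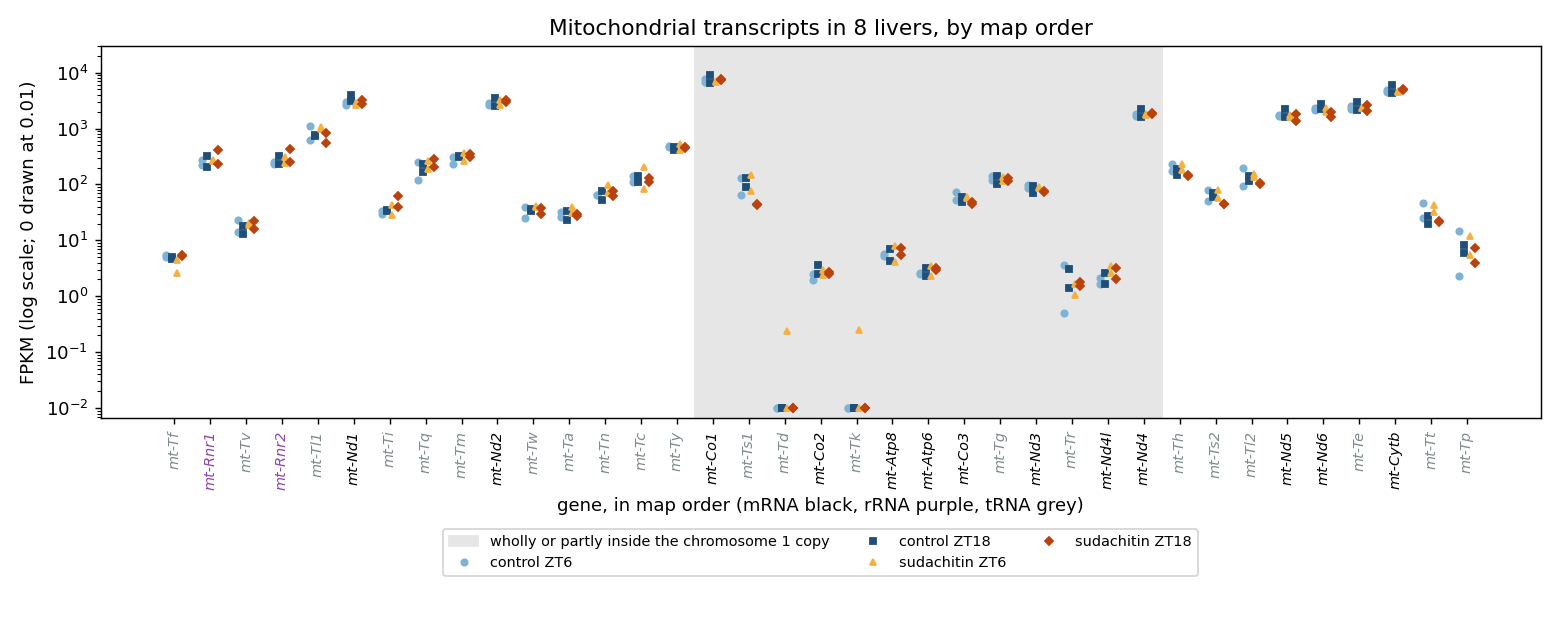
Level of the 37 mitochondrial genes in FPKM (vertical axis, log scale, with 0 drawn at 0.01), in map order from mt-Tf to mt-Tp, where each point is 1 liver and its shape and colour give the group. The shaded genes lie wholly or partly inside the stretch copied on chromosome 1, and within it mt-Td, mt-Tk, mt-Co2 and mt-Nd4l are among the lowest.

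The rRNAs were lower than the mRNAs with bases outside the stretch in these poly(A)-enriched libraries. mt-Rnr1, the 12S RNA of the small ribosomal subunit, was at 275 FPKM (SD 69.4, n = 8) and mt-Rnr2, the 16S RNA of the large subunit, at 283 (SD 67.7, n = 8), a difference within the spread of either.

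Each tRNA gene is 59 to 75 bases long, shorter than a single 150-bp read, so that these rows cannot be taken as amounts of mature tRNA. Rows of tRNA genes spanned 0 to 2992 FPKM. The 5 highest by mean count were mt-Te (2406 FPKM, SD 307), which lies between mt-Nd6 and mt-Cytb, mt-Tl1 (831, SD 200), between mt-Rnr2 and mt-Nd1, mt-Ty (461, SD 41.1), next to mt-Co1, mt-Tm (306, SD 41.1), next to mt-Nd2, and mt-Tq (214, SD 55.3). Those between 50 and 200 FPKM were mt-Th (181), mt-Tl2 (131), mt-Tc (128), mt-Tg (126), mt-Ts1 (90.5), mt-Tn (70.4) and mt-Ts2 (61). Below them were mt-Ti (37.9), mt-Tw (35.5), mt-Ta (30.6), mt-Tt (29.6), mt-Tv (18.2), mt-Tp (7.47) and mt-Tf (4.77). Low rows had such neighbours too: mt-Ti lies next to mt-Nd1, mt-Tw next to mt-Nd2 and mt-Tt next to mt-Cytb. The 3 rows that did not pass the filter on low counts all lie inside the copied stretch: mt-Td and mt-Tk had 0 to 0.5 counts per library and mt-Tr 1 to 8. Since the libraries carry no strand, the 8 tRNA genes on the light strand (minus in the annotation) and mt-Nd6, the only mRNA there, cannot be told apart from heavy-strand RNA over the same bases.

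The sequences of the 6 tRNAs on which the comparisons below or the levels above turn are given 5′ to 3′, with the anticodon in capitals. They carry leucine (mt-Tl1), isoleucine (mt-Ti), serine (mt-Ts1), histidine (mt-Th), glutamate (mt-Te) and threonine (mt-Tt).
mt-Tl1 (chrM:2676-2750, plus strand): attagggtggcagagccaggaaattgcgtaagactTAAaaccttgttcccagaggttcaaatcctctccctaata
mt-Ti (chrM:3706-3774, plus strand): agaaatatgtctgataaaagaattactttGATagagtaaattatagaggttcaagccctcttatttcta
mt-Ts1 (chrM:6870-6938, minus strand): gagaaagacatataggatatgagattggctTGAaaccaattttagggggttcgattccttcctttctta
mt-Th (chrM:11546-11612, plus strand): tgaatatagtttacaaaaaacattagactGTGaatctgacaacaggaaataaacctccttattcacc
mt-Te (chrM:14071-14139, minus strand): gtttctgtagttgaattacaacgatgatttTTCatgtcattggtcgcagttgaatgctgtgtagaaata
mt-Tt (chrM:15289-15355, plus strand): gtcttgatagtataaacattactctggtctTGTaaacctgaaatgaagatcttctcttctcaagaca

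Mitochondrial RNA took a similar share of 6 of the 8 libraries, and the widest gap was between the other 2, control livers of the same group. Mitochondrial rows together took 6.67% of all counts in exons (SD 0.815, n = 8). The lowest and the highest library were the 2 control livers at ZT18, at 5.75% and 8.45%, and the other 6 lay between 6.25% and 7.10%. The mRNAs made up 95.5% to 96.9% of these counts. As a share of the library, mRNAs were at 6.29% and 6.04% at ZT6 and 5.57% and 8.18% at ZT18 without sudachitin, and 6.07% and 6.10% at ZT6 and 6.41% and 6.87% at ZT18 with it. At each time both sudachitin livers lay between the 2 control livers, and the spread within control ZT18 was wider than any difference between group means. In bulk tissue, fewer cells of a type and less RNA per cell cannot be told apart.

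The difference in mRNA share between sudachitin and control was -0.08 percentage points at ZT6, -0.23 at ZT18 and -0.16 over both times (exact two-sided permutation test, p = 0.8333 over both times, adjusted p = 1.0 over 18 tests of shares and ratios). Between ZT18 and ZT6 it was 0.71 in control, 0.56 in sudachitin and 0.63 over both treatments (exact permutation p = 0.3889, adjusted p = 1.0). Without the second control liver at ZT18, the difference between treatments at ZT18 was 1.07 and that between times in control -0.60. Without the second sudachitin liver at ZT18, the difference between times in sudachitin was 0.33, and without the first it was 0.79. With the library total in the deposited header as the denominator, which was larger than the counts in exons in every library, the differences between times were 0.29 in control, 0.15 in sudachitin and 0.22 over both treatments. With 2 livers against 2 the exact test cannot go below p = 0.3333, and over both levels of the other factor not below 0.0556.

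**Figure D3:**
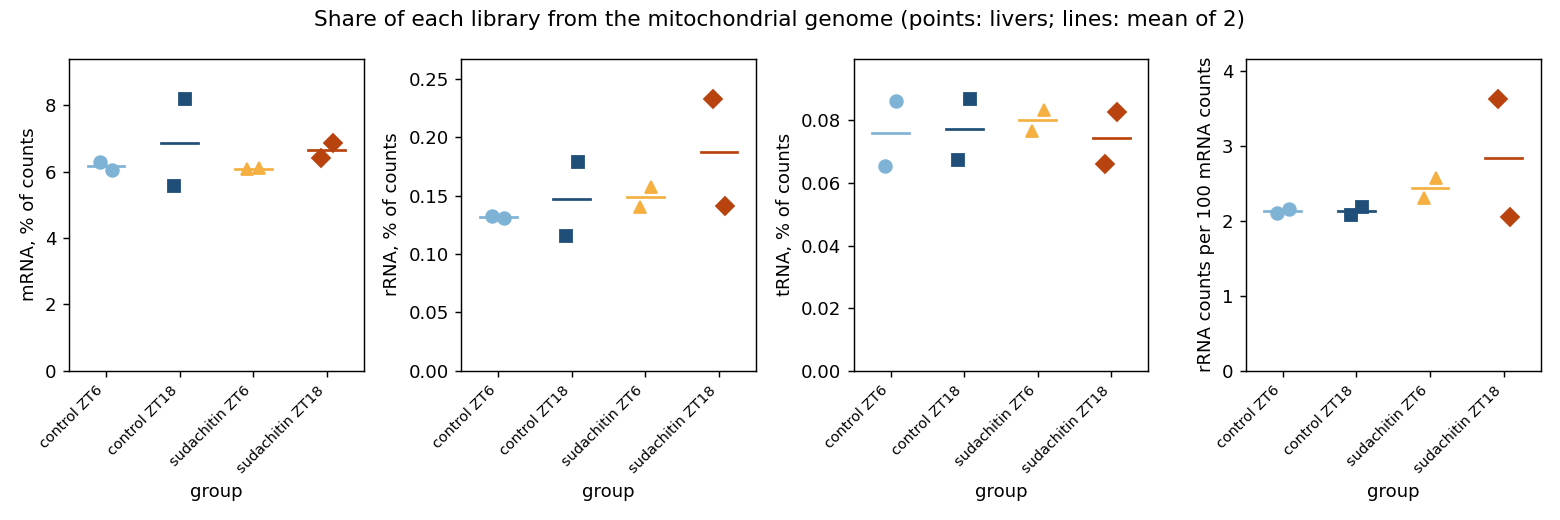
Share of all counts in exons from mitochondrial mRNA, rRNA and tRNA rows, in percent, and rRNA counts per 100 mRNA counts, for each liver (points) with the mean of each group of 2 (lines). The mRNA share spreads most between the 2 control livers at ZT18 (5.57% and 8.18%), and 1 sudachitin liver at ZT18 stands apart in the rRNA panels (0.233% of counts and 3.63 per 100).

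The rRNAs took 0.133% and 0.131% of counts in controls at ZT6 and 0.116% and 0.179% at ZT18, against 0.140% and 0.157% (ZT6) and 0.233% and 0.142% (ZT18) with sudachitin. The first sudachitin liver at ZT18 was the highest of all, and the second was within the control range. For each 100 mRNA counts there were 2.11 and 2.16 rRNA counts at ZT6 and 2.08 and 2.18 at ZT18 without sudachitin, and 2.31 and 2.57 at ZT6 and 3.63 and 2.06 at ZT18 with it. Thus 3 of the 4 sudachitin livers lay above all 4 control livers and 1 lay below them. On the log2 scale the ratio was 0.27 higher with sudachitin over both times (exact two-sided permutation test, p = 0.1667, adjusted p = 1.0), 0.07 higher without the first sudachitin liver at ZT18 and 0.48 higher without the second. None of the 18 tests of shares and ratios had an adjusted p below 1.0.

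An overlapping pair of rows in the ribosomal DNA unit rose with sudachitin in the same libraries. The pair belongs to a list of 17 rows for nuclear RNA without a poly(A) tail and for the ribosomal DNA unit. In that list 1 row was at 0 in all libraries and 11 were tested, and the summed level, which the pair dominates, was 4124 to 5068 CPM in the 4 control and 11306 to 16234 in the 4 sudachitin livers. Gm42418, a row in the ribosomal DNA unit, was at 2164 and 2517 CPM in controls at ZT6 and 2384 and 2040 at ZT18, against 5806 and 7140 (ZT6) and 7764 and 8407 (ZT18) with sudachitin. It rose by 1.67 on the log2 scale over both times (edgeR adjusted p = 0.00221), as did AY036118 (1.67, edgeR adjusted p = 0.00221), which overlaps it on the opposite strand, so that these libraries cannot tell the pair apart. Over both times these 2 were the only rows of the 11 to pass (background 0.0207% of all rows). The same pair passed at ZT18 (background 0.0138%), where it made up both of the 2 calls over all rows, and 0 of the 11 passed at ZT6 (background 0%). The other 9 tested rows, histone genes among them, did not pass in any comparison of treatments, although most of the list lay above 0. With sudachitin, 11 of 11 rows were above 0 at ZT18 (median 1.06 on the log2 scale), 10 over both times (median 0.75) and 9 at ZT6 (median 0.36). Among those 9 that did not pass, CT010467.1 was at 40.4 to 75.2 CPM in the 4 control and 118 to 146 in the 4 sudachitin livers. Its log2 change over both times was 1.29 (edgeR adjusted p = 0.24). The liver with the highest mitochondrial rRNA share was not the highest in this sum (15121 against 16234 CPM in the other sudachitin ZT18 liver). The part of these rows in the rRNA result was not tested.

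None of the 34 mitochondrial transcripts that could be tested passed the threshold between treatments or between times, and the 95% intervals of the 7 mRNAs with bases outside the copied stretch reached no further than -0.56 to 0.54 over both levels of the other factor. Single genes were compared with edgeR's quasi-likelihood test over all 14506 rows that passed the filter on low counts. Log2 changes are given with their SE and a 95% interval, and p-values are adjusted over all rows, with a threshold of 0.05. Sudachitin against control at ZT6 gave 0 mitochondrial calls, with a background of 0% of all rows, and 0 of 34 had an unadjusted p under 0.05 (background 2.12%). At ZT18, treatment gave 0 calls (background 0.0138%) and 2 members at the unadjusted level (background 6.51%). Treatment over both times gave 0 calls (background 0.0207%) and 0 at the unadjusted level (4.41%). ZT18 against ZT6 gave 0 calls in control (background 0.524%), 0 in sudachitin (0.186%) and 0 over both treatments (3.68%), with 0, 1 and 2 members at the unadjusted level (12.9%, 12.6% and 20.4%). The interaction, the change over time under sudachitin minus that in control, gave 0 calls (background 0%) and 1 at the unadjusted level (3.78%). DESeq2 called 1 member, mt-Ts1, between times in sudachitin, where it called 274 of all 14506 rows. In the other comparisons it called 0 members, beside 9 to 942 of all rows. limma on log2 FPKM called 0 members throughout, beside 0 to 408 of all rows. The values of 2 groups did not overlap for 3 of 34 members between treatments at ZT6 (31.7% of all rows), 6 at ZT18 (30.8%), 3 between times in control (42.4%) and 15 in sudachitin (45.9%). Comparisons that share a group, such as treatment at ZT18 and time in sudachitin, share its 2 livers.

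Among the 7 mRNAs with bases outside the stretch, mt-Co1 was at 25073 and 22057 CPM at ZT6 and 20471 and 31396 at ZT18 without sudachitin, and 23208 and 22495 at ZT6 and 25894 and 26673 at ZT18 with it. All groups compared overlapped except the sudachitin groups at the 2 times. Its log2 change with sudachitin over both times was -0.01 (95% interval -0.32 to 0.30) and its change from ZT6 to ZT18 over both treatments was 0.17 (-0.14 to 0.48). mt-Cytb was at 11896 and 10932 CPM in controls at ZT6 and 10072 and 15293 at ZT18, against 10973 and 11269 (ZT6) and 13144 and 12868 (ZT18) with sudachitin, with changes of 0.00 for treatment (95% interval -0.30 to 0.29) and 0.19 for time (-0.11 to 0.48). For all 7 mRNAs, treatment over both times gave changes from -0.23 (mt-Nd6) to 0.09 (mt-Nd2), and the intervals together reached from -0.56 to 0.38. Time over both treatments gave -0.01 (mt-Nd6) to 0.26 (mt-Nd1), with 6 of 7 above 0 and intervals from -0.34 to 0.54. Their median was -0.01 for treatment, beside 0.00 over all tested rows, and 0.17 for time, beside 0.02.

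The largest treatment difference among these 7 was in mt-Nd6, the complex I subunit on the light strand. It was at 2322 and 2564 CPM at ZT6 and 2359 and 3209 at ZT18 without sudachitin, and 2630 and 2161 at ZT6 and 1830 and 2304 at ZT18 with it. At ZT18 both sudachitin livers were below both control livers, by -0.43 on the log2 scale (SE 0.19, 95% interval -0.87 to 0.01, edgeR adjusted p = 0.772). The interaction was -0.40 (95% interval -1.03 to 0.23, edgeR adjusted p = 0.998). mt-Nd5, which shares 14 bases with mt-Nd6 on the opposite strand, was at -0.24 in the same comparison (95% interval -0.76 to 0.28).

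For all 7 mRNAs, livers differed more in level than in the proportion of their summed counts, in part by construction, since each gene counts in that sum. The second control liver at ZT18 was the highest of 8 for all 7 genes, and the first was the lowest for 4 of them. Within the summed counts of the 7, mt-Co1 made up 38.3% (SD 1.01, n = 8) and mt-Cytb 18.7% (SD 0.536, n = 8). The coefficient of variation of the proportion was 2.64% for mt-Co1 and 2.86% for mt-Cytb, against 13.9% and 13.8% for their CPM. These 2 genes are the largest parts of the sum, which holds down the spread of their proportions. For mt-Nd4 the coefficients were 4.20% and 12.7%, and for mt-Nd1 8.04% and 16.3%. mt-Nd6 varied most as a proportion, with a coefficient of 14.5% against 16.6% for its CPM. Its proportion was 3.69% and 4.32% in controls at ZT6 and 4.29% and 3.87% at ZT18, against 4.35% and 3.61% (ZT6) and 2.76% and 3.38% (ZT18) with sudachitin. The lowest value, in the first sudachitin liver at ZT18, came with the lowest proportion of mt-Nd5 (8.21%, against 10.3% to 11.5% in the other 7 livers), in the library that was also highest in mitochondrial rRNA.

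Of the mRNAs inside the copied stretch, which may hold counts from either genome, 0 of 6 passed in any comparison. Their changes with sudachitin over both times ran from -0.12 (mt-Co3) to 0.52 (mt-Nd4l, 95% interval -0.09 to 1.13, edgeR adjusted p = 0.996). mt-Nd4l was at 1.08 and 1.31 CPM in control ZT6 and 1.66 and 2.18 in sudachitin ZT6 livers, a difference of 0.68 on the log2 scale between groups that did not overlap (95% interval -0.25 to 1.61, edgeR adjusted p = 1). From ZT6 to ZT18 over both treatments mt-Co3 and mt-Nd3 were at -0.22 and -0.14 (95% intervals -0.49 to 0.06 and -0.38 to 0.11). mt-Co2, mt-Atp6 and mt-Atp8 were at 0.25, 0.15 and 0.10 in that comparison.

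mt-Rnr1 was at 546 and 442 CPM at ZT6 and 399.6 and 685 at ZT18 without sudachitin, and 559 and 533 at ZT6 and 894 and 499.7 at ZT18 with it. mt-Rnr2 was at 783 and 846, 747 and 1127, 840.1 and 1014, and 1516 and 906 CPM in the same order. At ZT18 the log2 change with sudachitin was 0.36 for mt-Rnr1 (SE 0.31, 95% interval -0.33 to 1.06, edgeR adjusted p = 0.878) and 0.37 for mt-Rnr2 (SE 0.27, -0.23 to 0.97, edgeR adjusted p = 0.854). Without the first sudachitin liver at ZT18 both turned, to -0.12 and -0.05. Over both times the changes were 0.25 and 0.28, with 95% intervals of -0.22 to 0.72 and -0.13 to 0.68.

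**Figure D4:**
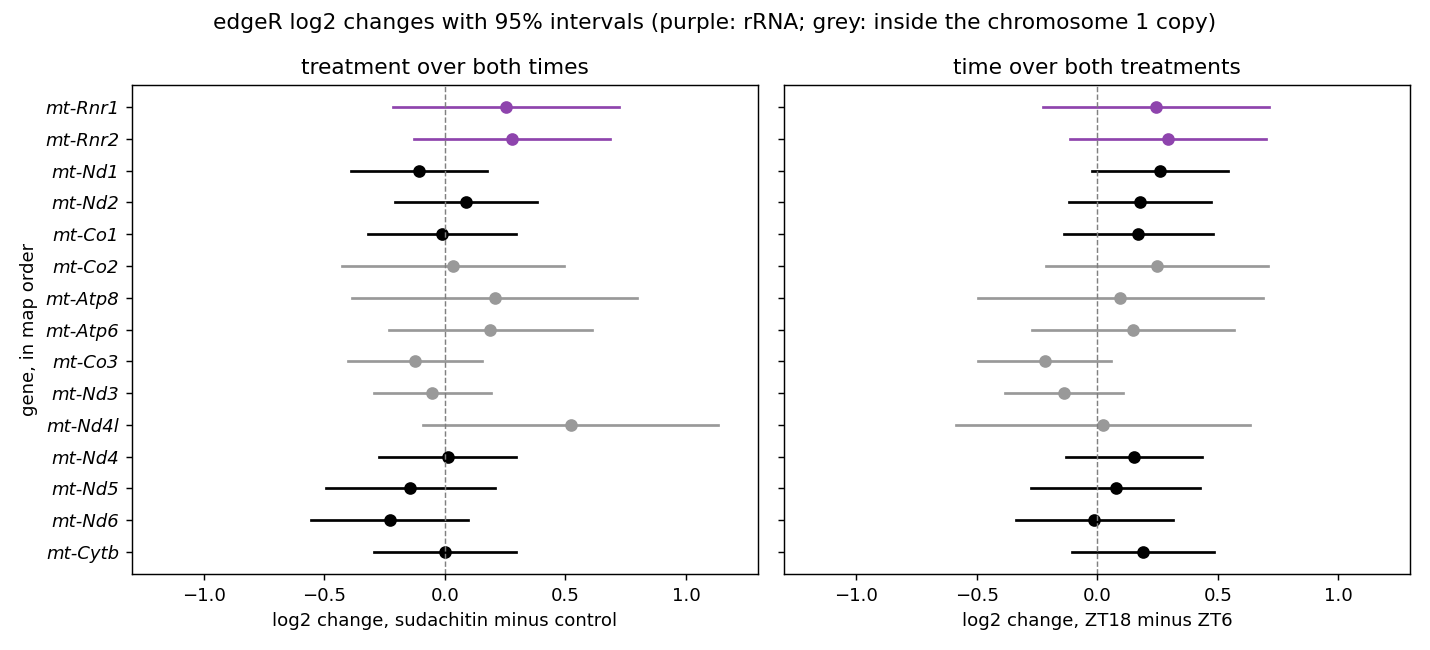
edgeR log2 change (points) with its 95% interval (lines) of the 13 mRNAs and 2 rRNAs in map order, for sudachitin minus control over both times (left) and ZT18 minus ZT6 over both treatments (right), with all 8 livers in each fit. The interval includes 0 for all 15 genes in both panels, and grey marks genes inside the stretch copied on chromosome 1.

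Of the 19 tested tRNA rows, 0 passed in any comparison with the adjusted threshold, and 4 had an unadjusted p under 0.05 in at least 1. The largest difference was in mt-Ts1, which was at 9.36 and 19 CPM in controls at ZT6 and 12.4 and 19.7 at ZT18, against 21.6 and 10.8 (ZT6) and 6.82 and 6.69 (ZT18) with sudachitin. Both sudachitin livers at ZT18 were below all other livers, while the 2 livers of each ZT6 group lay far apart. At ZT18 the log2 change with sudachitin was -1.25 (SE 0.41, 95% interval -2.18 to -0.31, edgeR adjusted p = 0.708), between times in sudachitin it was -1.27 (SE 0.41, edgeR adjusted p = 0.268, DESeq2 adjusted p = 0.0327), and the interaction was -1.44 (SE 0.57, edgeR adjusted p = 0.998). With no filter on low counts, edgeR called all 3 of these differences (adjusted p = 7.32e-07, 2.61e-07 and 0.000171), while at ZT18 it then called 488 of 28464 rows in all, against 2 of 14506 with the filter. mt-Ts1 lies whole inside the copied stretch, overlaps the end of mt-Co1 by 3 bases on the opposite strand, and its row held 114 to 352 counts.

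mt-Ti was at 4.25 and 4.77 CPM at ZT6 and 5.02 and 5.06 at ZT18 without sudachitin, and 4.18 and 6.14 at ZT6 and 9.42 and 6.22 at ZT18 with it. Its log2 change with sudachitin at ZT18 was 0.63 (SE 0.27, 95% interval 0.03 to 1.24, edgeR adjusted p = 0.746). The highest value came from the liver that was highest in mitochondrial rRNA. mt-Ti lies outside the copied stretch, just after mt-Nd1, with which it shares 2 bases.

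Between times over both treatments, mt-Tt and mt-Th had an unadjusted edgeR p under 0.05. mt-Tt was at 3.53 and 6.47 CPM in controls at ZT6 and 2.73 and 4.08 at ZT18, against 4.55 and 6.00 (ZT6) and 3.14 and 3.35 (ZT18) with sudachitin. Its log2 change from ZT6 to ZT18 over both treatments was -0.63 (SE 0.23, 95% interval -1.14 to -0.13, edgeR adjusted p = 0.156). With no filter on low counts edgeR called it (adjusted p = 0.0317), among 1629 of 28464 rows in all. mt-Th was at 24.3 and 32.4 CPM at ZT6 and 20.5 and 28.3 at ZT18 without sudachitin, and 25.9 and 31.6 at ZT6 and 22.1 and 21.6 at ZT18 with it, a change of -0.31 (SE 0.13, 95% interval -0.61 to -0.01, edgeR adjusted p = 0.236). In both genes the control groups overlapped and the sudachitin groups did not. Across the 19 tested tRNA rows the change over both treatments ran from -0.63 (mt-Tt) to 0.39 (mt-Ti), with 13 below 0 and a median of -0.07.

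**Figure D5:**
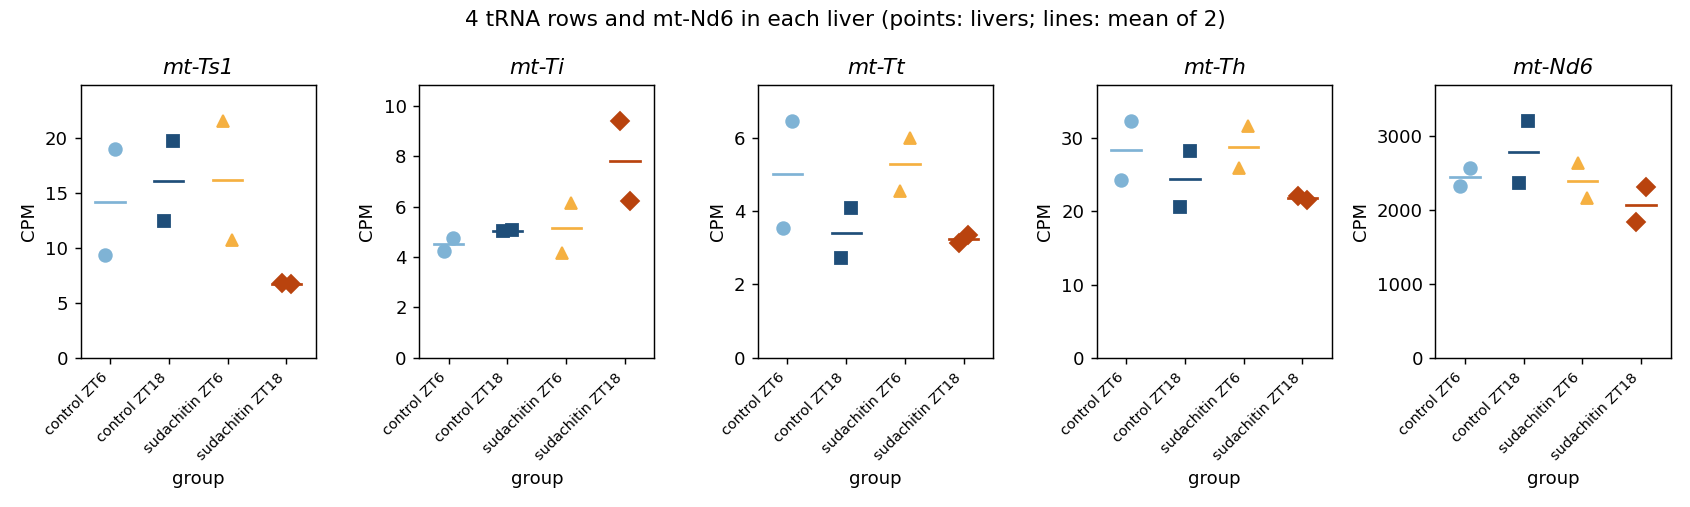
Level in CPM (vertical axis, from 0) of mt-Ts1, mt-Ti, mt-Tt, mt-Th and mt-Nd6 in each liver (points), by group, with the mean of the 2 livers (lines). mt-Ts1 is lowest in the 2 sudachitin livers at ZT18 (6.82 and 6.69 CPM) and spreads widely in the ZT6 groups.

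The nuclear genes that serve the mitochondrial genome were followed as lists. Of 15 genes for mitochondrial transcription and DNA maintenance, 21 for RNA processing and stability and 17 for rRNA modification and ribosome assembly, all were tested and 0 passed in any of the 7 comparisons. Tfam, which packages mitochondrial DNA and starts its transcription, was at -0.22 with sudachitin at ZT18 (95% interval -0.49 to 0.06, edgeR adjusted p = 0.813). The median changes with sudachitin over both times were -0.01, -0.02 and 0.00 on the log2 scale for these lists, beside 0.00 over all tested rows.

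Of 22 genes for charging mitochondrial tRNAs, 1 rose with sudachitin over both times and 0 fell (background 0.0207%). It was Lars2, the leucyl-tRNA synthetase of mitochondria, at 1.33 on the log2 scale (SE 0.12, 95% interval 1.05 to 1.60, edgeR adjusted p = 0.00677). At ZT6 and ZT18 alone it was at 1.28 and 1.38, with edgeR adjusted p-values of 0.306 and 0.168. The median of the list was -0.06. The leucine tRNA rows that Lars2 serves, mt-Tl1 and mt-Tl2, were at 0.10 and -0.12 in the same comparison, neither with an unadjusted p under 0.05. The ribosomal DNA rows rose in the same livers (1.67 for Gm42418), and their part in the Lars2 change was not tested.

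The nuclear subunits of the complexes that hold the mitochondrial proteins showed 0 calls in every comparison, among 19 for complex I, 9 for complex III, 10 for complex IV and 14 for the ATP synthase. From ZT6 to ZT18 in control livers every gene of the 4 lists lay above 0, with medians of 0.20, 0.14, 0.22 and 0.15 on the log2 scale, beside 0.02 over all tested rows and 0.18 for the 7 mitochondrial mRNAs. Uqcr10 of complex III had a change of 0.52 (SE 0.14, edgeR adjusted p = 0.198) and Cox7b of complex IV 0.46 (SE 0.16, edgeR adjusted p = 0.275). Of the control livers at ZT18, the first had the higher sum in all 4 lists. It was at 2002 against 1821 CPM for complex I and 4445 against 3898 for the ATP synthase. In mitochondrial mRNA share the second was higher, at 8.18% against 5.57%. Without that second liver the share difference between times in control was -0.60 percentage points. In sudachitin livers the medians were 0.05, 0.08, 0.08 and 0.08, beside 0.16 for the 7 mitochondrial mRNAs. With sudachitin at ZT18 the nuclear medians were -0.14, -0.07, -0.11 and -0.08, beside 0.02 for the mitochondrial mRNAs. At ZT6 they lay on the other side of 0, at 0.02, 0.10, 0.08 and 0.01, with 11 of 19, 5 of 9, 10 of 10 and 9 of 14 genes above 0, against 0, 0, 2 and 1 at ZT18. No test of a list or of the difference between the genomes was made.

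Of 10 genes for mitochondrial mass and turnover, 1 passed in the comparison between times over both treatments, where 3.68% of all rows did. Bnip3, a receptor for the removal of mitochondria, had a log2 rise of 0.62 between ZT6 and ZT18 over both treatments (SE 0.13, 95% interval 0.31 to 0.92, edgeR adjusted p = 0.0412). Citrate synthase, Cs, often used as a measure of mitochondrial content, was at -0.22 with sudachitin over both times (SE 0.09, 95% interval -0.43 to -0.02, edgeR adjusted p = 0.996).

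Markers of other cells did not pass in any comparison, although several lists lay on one side of 0. With sudachitin at ZT6 all 8 macrophage and Kupffer cell markers were above 0 (median 0.70 on the log2 scale, beside -0.01 over all tested rows), with a summed level of 133 and 209.8 CPM against 94.9 and 115 in controls. With sudachitin at ZT18 all 8 stellate cell and fibroblast markers were below 0 (median -0.52), at 271 and 216 CPM against 323 and 282. In the same comparison 4 of 5 tested erythroid markers were below 0 (median -0.60). Their sums overlapped, at 286 and 349.5 CPM with sudachitin against 502 and 332 in controls, and at ZT6 4 of 5 were above 0 (median 0.26). From ZT6 to ZT18 in controls all 5 tested cholangiocyte markers were above 0 (median 1.03), at 76.4 and 45.9 CPM against 29.6 and 27.5. Their part in the mitochondrial values was not tested. Over all livers the summed levels ran from 87 to 209.8 CPM for macrophages and Kupffer cells (8 genes), 207 to 323 for stellate cells and fibroblasts (8), 102 to 133 for endothelial cells (7), 22.9 to 76.4 for cholangiocytes (6), 286 to 502 for erythroid cells (6) and 3.89 to 6.52 for lymphocytes (7). For brown adipocytes and muscle, tissues dense in mitochondria, the sum of 6 genes was 0.176 to 1.90 CPM in 6 livers, and 21.6 in the first control and 16.8 in the first sudachitin liver at ZT18. Cidea alone made up 20.5 and 16.4 CPM of these, whereas Ucp1, which defines brown fat, was at 0 to 0.0654 CPM in all livers. The liver with the highest mitochondrial share, the second control liver at ZT18, had a sum of 1.33 CPM.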

How the data were processed

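Per the submitters' processing notes, the tools were Trimmomatic 0.39, STAR 2.7.2a and HOMER with genome GRCm38 (mm10), with no roles or order given. How the counting used strand is not given in the sources used here. Estimated counts, as deposited, in exons and in steps of 0.5, were rounded to whole numbers with 0.5 rounded upward. The deposited FPKM were used for levels per length. Groups came from the sample titles, which name separate mice.

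The whole table was tested in R 4.3.3 with edgeR 4.0.16 (TMM factors 0.966 to 1.016, default filter by group, quasi-likelihood test, Benjamini-Hochberg adjustment). All 8 libraries entered a model of 4 group means and one in which treatment and time add up. The SE is the size of the change over the square root of F, and intervals use the test's degrees of freedom. Shares were compared by exact permutation tests. The fit was tested on simulated data. Alternatives used DESeq2 1.42.0 and limma 3.58.1 (log2 of FPKM plus 0.1 or 1).

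All 37 members are accounted for. Of each other list, members that passed and up to 3 with the smallest p may be named, and Gm42418 levels per liver, Cidea, Ucp1, mt-Tl1 and mt-Tl2 were set beside results after their values were seen. Members and lists were chosen with earlier results of these data known. Sequences are from the GENCODE M21 transcripts.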

Additional observations from a re-analysis of the deposited data

How the results depend on the processing

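With no filter on low counts, edgeR called 1 mitochondrial transcript for treatment at ZT18, 1 between times in sudachitin, 1 for the interaction (mt-Ts1 in each) and 2 between times over both treatments (mt-Ts1 and mt-Tt), against 0 with the filter. Over all rows that setting raised the calls from 2 to 488, 27 to 861, 0 to 259 and 534 to 1629 in these comparisons. DESeq2 called 1 (mt-Ts1) between times in sudachitin, where it called 274 of 14506 rows in all. In the other 118 of 123 alternatives for these 7 counts, including all 56 that left out 1 library, 0 were called. Leaving out each library in turn, treatment at ZT18 ranged from -0.1194 to 0.8006 for mt-Rnr1 and from -0.0503 to 0.6957 for mt-Rnr2 (lowest without the first sudachitin, highest without the second control liver at ZT18), and treatment over both times from -0.1257 to 0.1177 for mt-Co1, which was at 0.0019 with no filter. Of the 227 alternatives for 13 single-gene results, 216 kept the direction and the side of the threshold.

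Without each library in turn, the mRNA share difference ranged, in percentage points, from -0.2077 to 0.0487 (treatment, ZT6), -1.5401 to 1.0742 (treatment, ZT18), -0.5959 to 2.0184 (time, control), 0.3253 to 0.7903 (time, sudachitin), -0.8098 to 0.4973 (treatment, both times) and -0.0191 to 1.2881 (time, both treatments). The rRNA share ranged from -0.0057 to 0.0854 (treatment, ZT18), -0.016 to 0.047 (time, control) and -0.007 to 0.0841 (time, sudachitin). The log2 ratio of rRNA to mRNA ranged from -0.0492 to 0.7686 (treatment, ZT18), -0.0404 to 0.0313 (time, control), -0.2431 to 0.5747 (time, sudachitin) and -0.1238 to 0.2851 (time, both treatments). The level of mt-Co1 per kilobase outside the copied stretch was 10779.4 and that of mt-Nd4 5023.1, a setting chosen after seeing the data. Both levels are higher by construction, since the same counts are divided by fewer bases. The cause of the shifts on leaving out a library was not tested.

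With the replicate number as a block, 0 mitochondrial transcripts were called in each of the 7 comparisons. Over all rows, the block moved the calls for treatment from 0 to 1 at ZT6 and from 2 to 0 at ZT18. The ribosomal DNA pair therefore did not pass at ZT18 in that setting. Calls between times fell from 76 to 43 in control, 27 to 18 in sudachitin and 534 to 461 over both treatments. Treatment over both times stayed at 3 calls and the interaction at 0. Livers with the same number share only that number: the correlations of their deviations ran from -0.2036 to 0.2808 over the 6 pairs of groups. The 2 livers per group and the counts under 100 in several rows inside the copied stretch limit what these tests can detect.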
